A study of Oncorhynchus mykiss with 30 samples.

Results

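Juvenile male rainbow trout (Oncorhynchus mykiss) exposed to 1 μg/L of 17α-ethynylestradiol (EE2) were compared with trout exposed to the solvent alone, a contrast named CT3. The members were the 6 arrays of gonads from the 1 μgEE2/L tanks and the 6 arrays of the solvent control, that is, 12 of the 30 arrays of the study, and they were chosen by their labelled concentration with all probes kept. The other 18 arrays came from fish at 0.01, 0.1 and 10 μgEE2/L. Except in the last comparison, they entered only through the common quantile normalisation and the shared estimate of the spread. Fry of an all-male stock were exposed for 76 days, from first feeding at 60 days post-fertilisation to 136 days. Each concentration had 3 tanks, and 2 pools of gonads, labelled as testis, from 10 fish each were taken per tank. The concentration in the water at a nominal 1 μgEE2/L is labelled as 1.62 ± 1.74 μg/L (mean ± SD), so the exposure varied widely. An array measured a pool, and the spread between arrays is therefore that between pools and tanks and not between fish. In whole gonads, fewer cells of a type and less RNA per cell cannot be told apart.

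EE2 is the synthetic oestrogen of contraceptive pills and binds the oestrogen receptors of fish. In fish, oestrogen made in the gonad drives the differentiation of the ovary, and genetic males that are given oestrogen early in life can develop oocytes in the testis or a whole ovary. FOXL2, a forkhead transcription factor of ovarian granulosa cells, acts in that pathway by promoting the synthesis of oestrogen, whereas male germ cells pass through meiosis to spermatids that build a tail with an axoneme of tubulin and dynein arms.

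RNA was labelled with a single dye and hybridised to an oligonucleotide array of 60195 probes. Levels are given as log2 of the processed signal after quantile normalisation over the 30 arrays, and they were not compared between probes. Between 75.8 and 86.8% of the probes of an array were well above background, and 0 were saturated. Few probes carry a gene name, so that the markers of testis, ovary and other tissues could be checked only where the array design or the study named a probe. The 75th percentile of the signal before normalisation, a measure of brightness, lay between 359 and 1238 on the control arrays and between 628 and 1224 at 1 μgEE2/L. On the log2 scale its mean was 9.39 for the control and 9.73 at 1 μgEE2/L, a difference of 0.35 (two-sided exact permutation test, p = 0.25, n = 6 and 6).

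Control replicates 2 and 6 stood apart from the remaining controls. The mean correlation of control replicate 6 over all probes was 0.952 with the other controls and 0.961 with the arrays at 1 μgEE2/L, and the corresponding values of control replicate 2 were 0.957 and 0.953. Control replicates 1, 3 and 5 correlated at 0.959 to 0.966 with the other controls and at 0.916 to 0.922 with the exposed arrays. Control replicate 4, on which the middle of the array was dim, had the lowest values, 0.925 and 0.877. The 6 arrays at 1 μgEE2/L correlated at 0.975 to 0.985 with each other and formed a narrower group. The median SD of a probe was 0.30 among them and 0.45 among the controls. Leaving out control replicates 2 and 6 is therefore given beside the results that move with them. As they were picked for their likeness to the exposed arrays, leaving them out tends to enlarge differences by selection. The p-values and counts without them are descriptions.

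The first principal component of the 12 arrays held 53.4% of the variance and separated the groups. Scores ran from 88.3 to 157 at 1 μgEE2/L and from -212 to -3.85 in the control, where replicates 6 (-3.85) and 2 (-36.1) lay nearest to the exposed arrays. The difference of the means was 244 (two-sided exact permutation test, p = 0.0022, the smallest that 6 against 6 arrays can give). The test took pools as its units, although EE2 was given per tank, with 3 tanks per concentration. Tanks were not permuted, and they are too few to give a p-value this small. Without control replicates 2 and 6 the difference was 295 (exact permutation test, p = 0.0048).

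**Figure D1:**
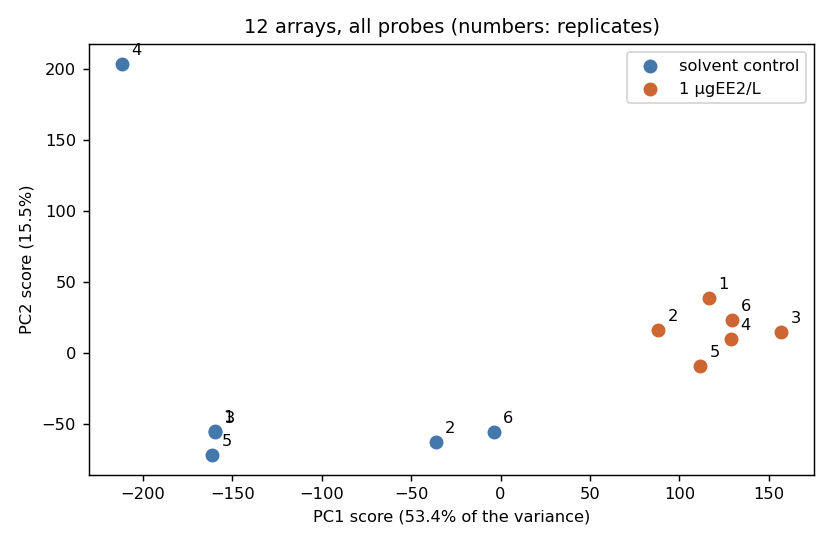
Scores of the 6 control arrays (blue) and the 6 arrays at 1 μgEE2/L (orange) on the first and second principal components of all probes, with replicate numbers beside the points. No array at 1 μgEE2/L lies below 88.3 on the first component and no control lies above -3.85; control replicate 4 stands alone on the second.

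The exposure changed the level of a large share of the array. CT3 called 24647 of 60195 probes in limma (adjusted p below 0.05), or 40.9% of the array. Rises made up 11902 of these (19.8% of the array) and falls 12745 (21.2%). A fold change over 2 was found for 12675 of them, 21.1% of the array, with 6464 rises and 6211 falls. The normexp background correction gave 6664 probes over 2-fold, and Scheffe's criterion called 12035 probes in all. The larger the change, the more the rises outnumbered the falls up to 16-fold. Over 4-fold there were 1685 rises and 1556 falls, over 16-fold 248 rises and 122 falls, and over 32-fold 67 rises and 58 falls. All 6 arrays at 1 μgEE2/L lay above every control for 4708 probes (7.82% of the array) and below every control for 6999 (11.6%). Each of the 4 slides held both groups, and 19065 called probes (77.4%) had the same sign on all 4 slides.

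Scaling each array to its 75th percentile moved the median log2 difference of all probes from -0.02 to -0.28 and gave 9320 rises and 17723 falls, so that the share of rises among the called probes was 34.5% instead of 48.3%. The balance of directions thus depends on the scaling. Without control replicates 2 and 6, 28050 probes (46.6%) were called, of which 23345 were also called with them, and 16750 exceeded 2-fold. Both these controls lay nearer to the mean at 1 μgEE2/L than to the mean of the other 4 controls for 7822 called probes (31.7%), of which 5015 were over-expressed.

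**Figure D2:**
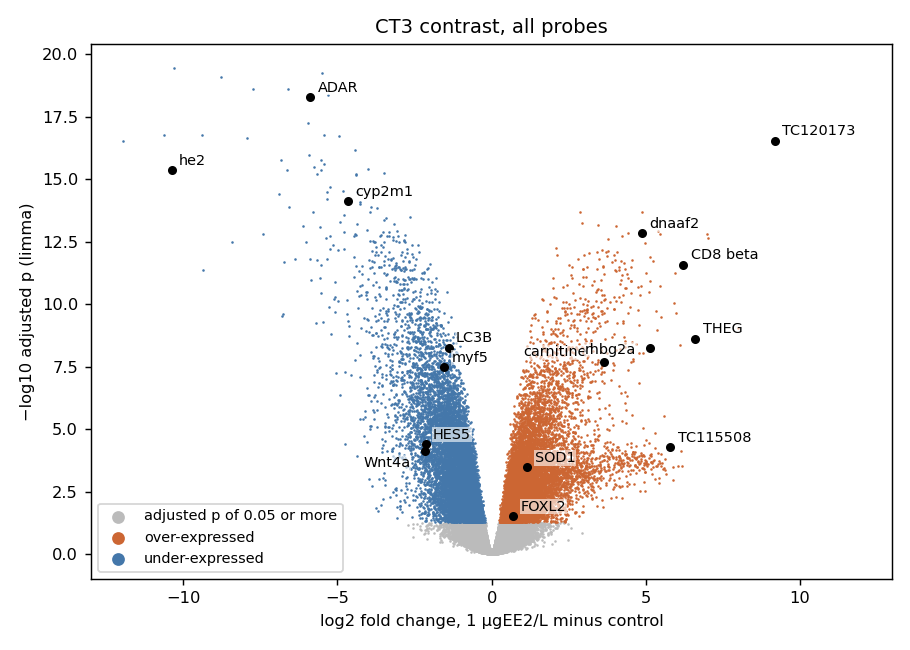
Log2 fold change of each of the 60195 probes in CT3 (x axis) against −log10 of the adjusted p from limma (y axis), with called probes in orange (over-expressed) and blue (under-expressed). Values of he2, Wnt4a, TC120173 and rhbg2a rest on signals below background in one group and are bounds in the text; TC115508, whose controls ranged from 5.93 to 15.47, has a larger adjusted p than other probes of its size of change.

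Some transcripts were detected in one group alone. A total of 221 probes were well above background on all 6 control arrays and on none at 1 μgEE2/L, and 219 of these were called. The converse held for 52 probes, all called. The probe CUST_2321_PI425536763, for which the sources used here give no gene, was the most extreme. Its control arrays had a log2 signal from 14.12 to 15.53 (median 14.44) and those at 1 μgEE2/L from 1.86 to 3.84 (median 2.58), which is at least 2033-fold lower (limma, adjusted p = 3e-17). A bound of this kind compares the brighter group with the lowest signal that counts as well above background on each array of the dimmer group. It holds for the main processing, and for some probes alternative fits gave smaller changes. The probe CUST_27381_PI425536763 fell from between 11.97 and 13.21 (median 12.59) to at most 2.88 (median 2.12), at least 563-fold lower (limma, adjusted p = 3.6e-20). In the other direction, TC120173 rose from between 1.66 and 2.70 (median 2.00) to between 10.27 and 11.87 (median 11.36), at least 292-fold higher (limma, adjusted p = 2.8e-17). TC109829 was at least 65.5-fold higher, with signals from 7.79 to 9.85 at 1 μgEE2/L. None of these probes had overlapping groups, and each was called under all 41 alternative fits. As they were chosen for a call and for detection in 1 group alone, both statements are descriptions.

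Among probes detected on all 12 arrays whose groups did not overlap, the 10 largest falls were between 47.5- and 114-fold and the 10 largest rises between 39.9- and 68.5-fold. The largest fall was that of TC120404, from a median of 12.82 (highest 13.96) to between 5.51 and 6.32 (median 6.01). CUST_1975_PI425536763 and TC107160, also without a gene in the sources, followed with 99.9- and 95.7-fold. The largest rise was that of TC121656, from between 7.28 and 12.85 (median 10.12) to between 15.28 and 17.07 (median 16.16), or 68.5-fold (limma, adjusted p = 4.2e-09). TC96428 rose 44.0-fold from a narrow control group of 9.54 to 10.96.

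A set of the largest rises had controls of very different levels. TC115508 had a log2 signal of 15.06 and 15.47 in control replicates 2 and 6, 10.27 and 10.31 in replicates 3 and 4, and 5.93 and 7.53 in replicates 1 and 5, against 15.86 to 17.49 at 1 μgEE2/L. The exposed arrays lay above every control, as the choice of these probes required. TC109234, TC95821 and TC114554 were alike, with control replicates 2 and 6 at 13.66 or more and replicates 1 and 5 at 7.60 or less. The rise of TC115508 was 55.6-fold over all controls (limma, adjusted p = 5e-05) and 266-fold without control replicates 2 and 6. Those of the other 3 went from 52.4-, 41.9- and 41.9-fold to 256-, 218- and 188-fold. Within slides, the log2 difference of TC115508 was 1.42 and 0.69 on the slides whose only control was replicate 2 or replicate 6, and 9.96 and 7.70 on the other slides. The slide and these controls cannot be told apart there, and the part that the 2 controls play in the calls was measured only by leaving them out.

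The study proposed a list of 16 sensitive biomarkers, chosen for their change at 0.1 and 0.01 μgEE2/L and at 1 or 10 μgEE2/L or both. Their probes were identified here through the printed values of those contrasts, which share the control arrays with CT3, so that neither their direction nor their call is independent evidence. At 1 μgEE2/L 9 were higher and 7 lower in the fit, with groups that did not overlap, and these counts are a description, beside 40.9% of all probes called and 19.4% without overlap.

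THEG, dnaaf2 and a tubulin were among the rises. Whether the pools at 1 μgEE2/L held spermatids was not tested. Earlier histology cited by the study classed most gonads at 1 μgEE2/L as ovarian-like, some as altered testes, and all control gonads as immature testes. THEG, the testicular haploid expressed gene named for its expression in spermatids of mice, had a log2 signal from 4.63 to 8.80 (median 6.82) in the controls, of which 5 were above background, and from 12.83 to 13.98 (median 13.27) at 1 μgEE2/L. The rise was 97.8-fold, or 6.61 ± 0.62 on the log2 scale (SE; limma, adjusted p = 2.4e-09). On the 4 slides it lay between 5.86 and 6.84. A probe similar to tubulin alpha 6, a subunit of microtubules, rose from between 12.05 and 15.57 (median 13.80) to between 17.63 and 17.80 (median 17.70), or 16.8-fold (limma, adjusted p = 5.4e-10). The exposed arrays were much closer to each other than the controls were. The dynein arm assembly factor dnaaf2 was above background on 1 control array and on all 6 exposed arrays, with a range of 2.60 to 4.46 (median 3.19) against 7.90 to 8.45 (median 8.17), a rise of 24.85-fold against the background limit and 29.2-fold in the fit (limma, adjusted p = 1.4e-13).

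Other rises of that list concerned genes of different or unknown function. CD8 beta, a chain of the co-receptor of cytotoxic T cells, rose from between 1.77 and 4.55 (median 2.86, above background on 1 array) to between 8.59 and 9.85 (median 9.10). Its rise was 50.4-fold against the background limit and 74.7-fold in the fit (limma, adjusted p = 2.6e-12). The part of immune cells in the pools was not tested. The splicing and transcription factor thrap3 rose 19.6-fold, from 3.89 to 5.99 in the controls to 8.89 to 9.69. The uncharacterised genes si:dkey-162h11.2 and CU856539.4 rose 37.7- and 62.4-fold, and a pair of unknown transcripts rose 63.3- and 18.7-fold, the second with 3 of 6 controls above background.

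Among the falls was he2, annotated by the study as hatching enzyme 2 of zebrafish. Its signal lay between 12.12 and 13.68 (median 12.86) in the controls and between 1.99 and 3.26 (median 2.47) at 1 μgEE2/L. It was below background on all 6 exposed arrays and at least 715-fold lower (limma, adjusted p = 4.4e-16). ADAR, an enzyme that edits adenosine to inosine in RNA, fell from between 12.47 and 13.56 (median 12.95) to between 6.55 and 7.53 (median 7.17), or 58.9-fold (limma, adjusted p = 5.1e-19). The trout cytochrome P450 cyp2m1 fell 25.4-fold, from between 11.26 and 11.99 (median 11.71) to between 6.48 and 7.67 (median 6.93). The controls of these 3 genes had an SD of 0.62 or less, beside a median of 0.45 over all probes. All 6 controls lay far above the exposed arrays, replicates 2 and 6 included.

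HES5, a repressor that Notch signalling induces, changed least in this list. It went from between 8.68 and 10.74 (median 10.00) to between 7.07 and 8.38 (median 7.55), a fall of 4.38-fold or 2.13 ± 0.37 (SE) on the log2 scale (limma, adjusted p = 3.8e-05). Within slides the difference ran from -0.45, on the slide of control replicate 6, to -2.83. The values of 3 further probes of the list that fell enter the counts only.

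**Figure D3:**
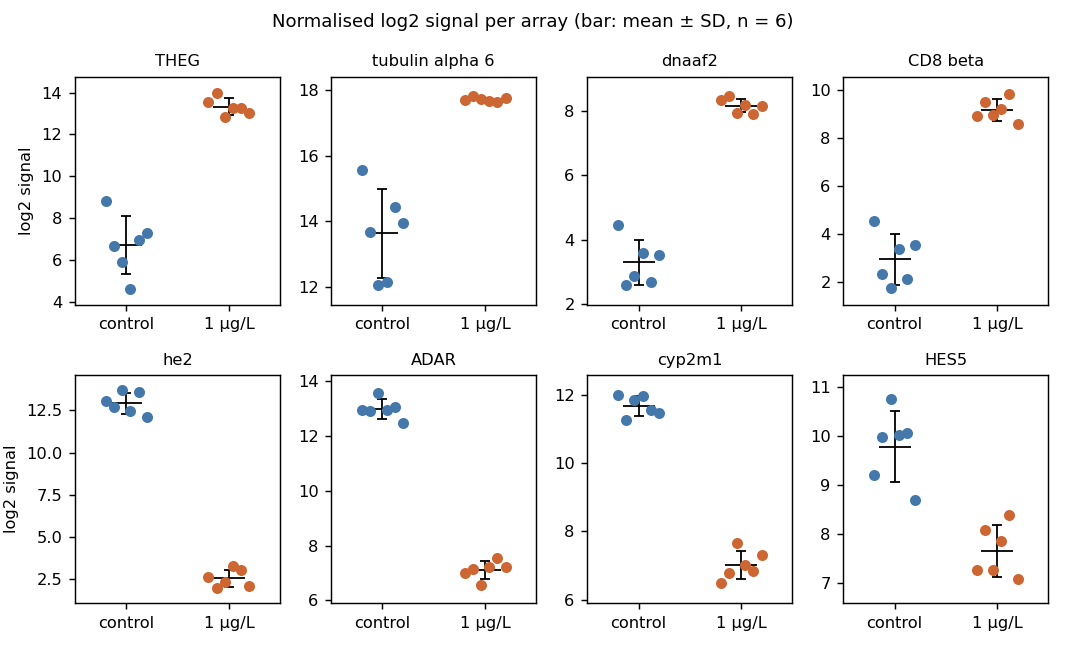
Normalised log2 signal of 8 genes of the list of sensitive biomarkers on each of the 6 control arrays (blue) and the 6 arrays at 1 μgEE2/L (orange), with the mean ± SD as bars and its own y axis for each gene. The upper row rose and the lower row fell, and in no panel do the groups overlap; he2 at 1 μgEE2/L is below background on all arrays.

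A second list of the study holds 8 specific biomarkers, chosen for a change at the 2 lower concentrations and for none at 1 and 10 μgEE2/L. Of these, 7 were identified here, and 1 was called in CT3, beside 40.9% of all probes. Because the list was chosen on CT3, this count is a description. FOXL2 was the called gene. Its signal lay between 6.91 and 9.03 (median 7.75) in the controls and between 8.39 and 8.86 (median 8.66) at 1 μgEE2/L, so that the groups overlapped. The rise was 1.62-fold or 0.70 ± 0.26 (SE) on the log2 scale (limma, adjusted p = 0.029).

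The value of FOXL2 turned on 2 control arrays. Control replicates 2 and 6 had 9.03 and 8.97, above all 6 exposed arrays, and the other 4 controls had 7.77 or less, below all of them. Without control replicates 2 and 6 the rise was 2.34-fold (limma, adjusted p = 6.3e-06). As these arrays were left out for resembling the exposed arrays, this p-value is a description. With all controls, the call was lost when 1 of 6 arrays was left out, control replicate 1, 3, 4 or 5 or replicate 4 or 6 at 1 μgEE2/L (adjusted p from 0.054 to 0.11), and under 5 other alternatives (adjusted p from 0.060 to 0.39), among them 75th percentile scaling and a fit to the 12 arrays alone.

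The other 6 genes did not pass the test, and spon2 and cdkn1b changed sign under 75th percentile scaling (-0.01 and -0.49). The secreted matrix protein spon2 had a log2 difference of 0.73 (limma, adjusted p = 0.076) at signals near background, and was called under 8 of 40 alternatives. It was called without control replicate 1 or 6 or without replicate 5 at 1 μgEE2/L (adjusted p from 0.020 to 0.040). The slide as a block (adjusted p = 0.043) and the omission of both control replicates 2 and 6 also gave a call of spon2. Differences of the remaining genes were 0.21 for cdkn1b, an inhibitor of the cell cycle, 0.21 and -0.46 for SLC25A6 and SLC25A4, which exchange ADP and ATP across the mitochondrial membrane, -0.67 for the glycolytic enzyme TPI1 and -0.63 for the aldehyde dehydrogenase Aldh7a1 (limma, adjusted p from 0.090 to 0.64). With 75th percentile scaling SLC25A4, TPI1 and Aldh7a1 were called as lower (limma, adjusted p = 0.021, 0.037 and 0.0090). Of 41 alternatives, 3 called SLC25A4, 3 called TPI1 and 7 called Aldh7a1.

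The 27 probes analysed here from the study's supplementary list were also chosen for a change at the lower concentrations and none at 1 and 10 μgEE2/L. In CT3, 4 rose, 1 fell and 22 did not pass the test, beside 40.9% of all probes called, with a median log2 difference of 0.36 beside -0.02 over all probes. The noggin nog3, an antagonist of bone morphogenetic proteins, was 1.78-fold higher (limma, adjusted p = 0.010) and 2.5-fold higher without control replicates 2 and 6. A fit to the 12 arrays alone did not call it (adjusted p = 0.067). The synapsin SYN2 was the only one whose groups did not overlap, at 6.50 to 6.72 against 5.43 to 6.38 (limma, adjusted p = 0.030), and its call was lost without control replicate 2 or 4 or without replicate 3 at 1 μgEE2/L (adjusted p from 0.061 to 0.092), as it was under 75th percentile scaling (adjusted p = 0.46). ANGPTL2 and Tspan2 rose by 0.97 and 0.86 on the log2 scale (limma, adjusted p = 0.041 and 0.028), and leaving out any of 8 and of 4 arrays ended their calls, as did omitting control replicates 2 and 6 for ANGPTL2 (adjusted p = 0.085) and 75th percentile scaling for Tspan2 (adjusted p = 0.50), which was above background on 2 controls and 4 exposed arrays. With the slide as a block ANGPTL2 was not called (adjusted p = 0.054). The T-box factor tbx2 was below background on all 6 exposed arrays and at least 1.77-fold lower (limma, adjusted p = 0.017). That call was lost under 5 of 40 alternatives, among them the omission of replicate 2 at 1 μgEE2/L (adjusted p = 0.056).

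**Figure D4:**
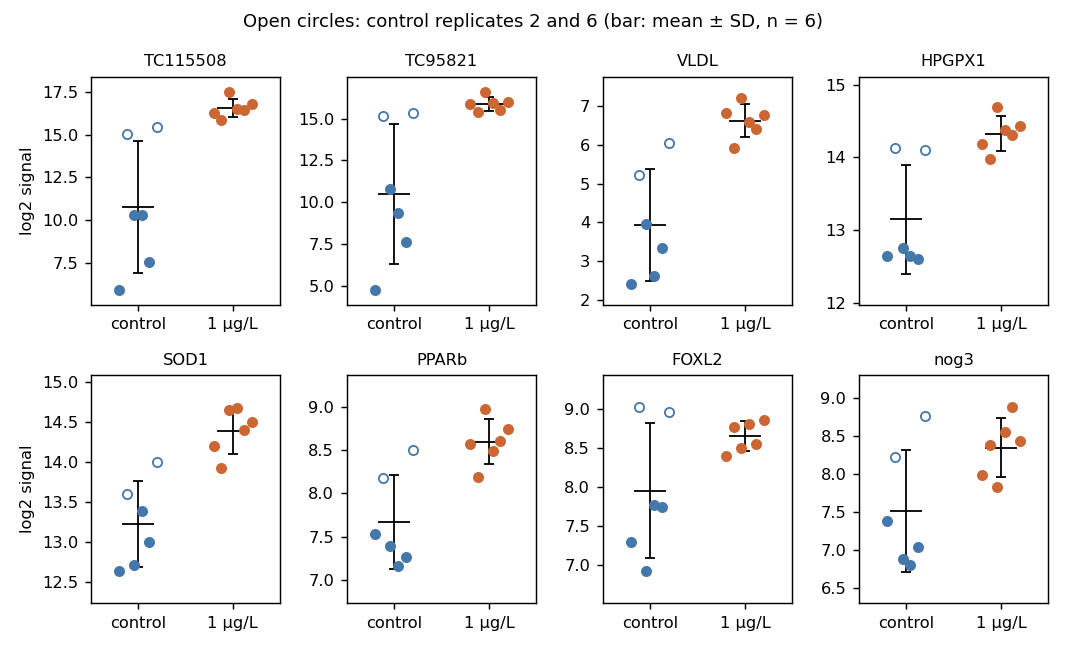
Normalised log2 signal of 8 probes on the 6 control arrays (blue, control replicates 2 and 6 as open circles) and the 6 arrays at 1 μgEE2/L (orange), with the mean ± SD of all 6 as bars and its own y axis for each probe. The probes were picked after their values were seen because the open circles lie near the exposed arrays; for FOXL2 both lie above all of them.

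The array design itself names 64 probes, most of them from muscle growth, metabolism and antioxidant defence. In CT3, 10 of them rose, 24 fell and 30 did not pass the test, so that 34 of 64 were called beside 40.9% of all probes. The median log2 difference was -0.29 beside -0.02 over all probes. Several names are cut to a single word in the files (carnitine, VLDL, lipoprotein, phosphoenolpyruvate, fatty) and are given as they stand.

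The 2 Wnt4 probes gave different results. Wnt4a, a copy of the Wnt ligand that acts in the ovarian pathway of mammals, lay between 3.49 and 5.74 (median 4.06) in the controls and between 1.63 and 3.42 (median 1.75) at 1 μgEE2/L. It was below background on all 6 exposed arrays, and at least 1.8-fold lower (limma, adjusted p = 7.2e-05). The other copy, Wnt4b, had a log2 difference of 0.92 and did not pass the test (adjusted p = 0.28), with 1 control, the dim replicate 4, at 4.31 and the other controls at 7.13 or more. Leaving out the dim middle of that array and of replicate 1 at 0.1 μgEE2/L gave a difference of 0.40 (limma, adjusted p = 0.014). Leaving out any 1 of the 12 arrays, the dim control included, did not give a call (limma, adjusted p of 0.23 or more).

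Of the 7 nuclear receptors, 1 rose and 4 fell, beside 19.8% and 21.2% of all probes. PPARb, which regulates the burning of fatty acids, rose 1.90-fold (limma, adjusted p = 0.0044) and 2.40-fold without control replicates 2 and 6, which lay at 8.18 and 8.50 beside 7.16 to 7.53 in the other controls and 8.19 to 8.97 at 1 μgEE2/L. PPARg, the receptor that drives fat cell formation, was below background on all exposed arrays and at least 2.16-fold lower (limma, adjusted p = 0.0027). That bound rests in part on the dim control replicate 4, at 8.01 beside 4.64 or less in the other controls. The groups overlapped, with the lowest control at 3.14 and the highest exposed array at 3.21. The glucocorticoid receptor nr3c1 fell 1.97-fold from between 11.28 and 12.39 to between 10.65 and 11.28 (limma, adjusted p = 0.00031). The falls of PPARa and RARa, by 0.56 and 0.46 on the log2 scale (limma, adjusted p = 0.048 and 0.027), were lost without any 1 of 7 and of 5 of the 12 arrays, and that of PPARa also with the slide as a block (adjusted p = 0.069). RARb, a retinoic acid receptor, did not pass the test (adjusted p = 0.26) although its groups, 6.31 to 7.10 and 4.77 to 5.27, did not overlap. In a fit to the 12 arrays alone its log2 difference of -1.65 had an adjusted p of 1.1e-05 in limma, and the same fit to all arrays without replicate 3 at 10 μgEE2/L gave 1.4e-07.

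The antioxidant enzymes moved in both directions. SOD1, the cytosolic superoxide dismutase, rose from between 12.64 and 14.00 (median 13.19) to between 13.92 and 14.67 (median 14.44), or 2.24-fold (limma, adjusted p = 0.00033). HPGPX1 rose 2.27-fold (adjusted p = 0.0018) over all controls and 3.17-fold without control replicates 2 and 6, which lay at 14.13 and 14.11 beside 12.60 to 12.75 in the other controls. Catalase, which breaks down hydrogen peroxide, fell 2.13-fold from a median of 11.44 (highest 12.18) to between 10.27 and 10.68, below every control (limma, adjusted p = 6.5e-05). Nrf2, the transcription factor that switches on many antioxidant genes, fell 2.09-fold (limma, adjusted p = 0.013), a call lost under 1 of 41 alternatives. GPX1 was not called (adjusted p = 0.19) but was without control replicate 6 (adjusted p = 0.031).

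Of the 9 probes for myogenic and skeletal regulators, 6 fell and 0 rose, beside 21.2% and 19.8% of all probes. The myogenic factor myf5 fell from between 7.67 and 8.91 (median 8.18) to between 6.48 and 7.11 (median 6.67), or 2.90-fold (limma, adjusted p = 3.2e-08). The related myod1 fell by 0.58 on the log2 scale (adjusted p = 0.016), and mrf4, below background on all exposed arrays, was at least 1.57-fold lower (adjusted p = 0.011). With tank means both missed the threshold (adjusted p = 0.052 and 0.055). MSX1, a homeobox repressor of differentiation, was also below background on all exposed arrays and at least 2.83-fold lower (adjusted p = 3.3e-06). Sox5, above background on 1 of the 6 exposed arrays, was lower (adjusted p = 0.016), by 1.51-fold against the background limit, a call lost without replicate 3 at 1 μgEE2/L (adjusted p = 0.051). The 2 probes of the tendon factor scleraxis disagreed, with log2 differences of 0.06 (adjusted p = 0.85) and -0.99 (adjusted p = 0.0021).

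Proteins of the muscle fibre moved in no common direction. The fast light chain probe fast_mlc1 rose 2.75-fold from between 7.40 and 9.14 to between 9.18 and 10.62 (limma, adjusted p = 0.00038), while fast_mlc3 fell 2.66-fold from between 9.28 and 9.91 to between 7.83 and 8.61 (adjusted p = 0.00013). The first of the slow fibre probes fell 2.00-fold (adjusted p = 0.00056). Fast_myosin lay between 8.65 and 12.98 in the controls and did not pass the test (adjusted p = 0.13), but did in a fit to the 12 arrays alone (adjusted p = 0.044). Of the 6 muscle fibre probes 1 rose, 2 fell and 3 were not called, beside 19.8% of all probes higher and 21.2% lower. The part of muscle RNA in the pools was not tested.

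Of the 10 probes of proteolysis and autophagy, 5 fell and 0 rose, beside 21.2% and 19.8% of all probes. Without control replicates 2 and 6, atg4b was called as higher, by 0.49 on the log2 scale (limma, adjusted p = 0.046). With all controls its difference was 0.32 (limma, adjusted p = 0.17), and 75th percentile scaling turned it to -0.15 (adjusted p = 0.51). LC3B, which coats the membrane of autophagosomes, fell from between 12.30 and 13.06 (median 13.02) to between 11.16 and 11.59 (median 11.53), or 2.63-fold (limma, adjusted p = 5.3e-09). The calcium-dependent protease calpain_2 fell 2.61-fold (adjusted p = 0.00045), whereas its inhibitor calpastatin had a log2 difference of -0.29 (adjusted p = 0.38). Smaller falls were those of calpain_1 (1.57-fold, adjusted p = 0.023) and of the proteasome subunits PSMA1 (1.36-fold, adjusted p = 0.0025) and MSS1 (1.27-fold, adjusted p = 0.047). The calls of MSS1 and calpain_1 were lost without any 1 of 9 and of 3 arrays, and the protease named cathepsine, with a log2 difference of 0.44, was not called (adjusted p = 0.078) but was called as higher without control replicate 4 or without replicate 6 at 1 μgEE2/L (adjusted p of 0.031 and 0.037).

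Among 17 probes of sugar and lipid metabolism, 4 rose and 3 fell, a share called close to the 40.9% of all probes. The probe named carnitine rose from between 4.98 and 6.51 (median 5.65) to between 9.06 and 9.63 (median 9.32), or 12.6-fold (limma, adjusted p = 2e-08). VLDL, above background on 3 of the 6 controls, rose (adjusted p = 8.5e-05), by 5.08-fold against the background limit and 6.46-fold in the fit. Its controls 2 and 6 lay at 5.23 and 6.04 and the others at 2.42 to 3.95. The probe named lipoprotein fell 5.26-fold, from between 9.69 and 10.46 (median 10.33) to between 7.21 and 8.47 (median 7.75) (limma, adjusted p = 5.1e-06). The rises of fatty and glucose_transporter_1 were 1.76- and 1.66-fold (adjusted p = 0.0058 and 0.0039), and the falls of phosphoenolpyruvate and elov12 were 1.92- and 2.58-fold (adjusted p = 0.00076 and 0.022), the last lost without control replicate 5 or without replicate 6 at 1 μgEE2/L (adjusted p of 0.066 and 0.060). Of the remaining named probes, rhbg2a, an ammonium transporter of the Rh family, was below background on all 6 controls and lay between 5.90 and 9.49 (median 7.41) at 1 μgEE2/L, at least 20.6-fold higher (limma, adjusted p = 5.7e-09). The smallest log2 difference of rhbg2a among the alternative fits was 1.89, below that bound.

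**Figure D5:**
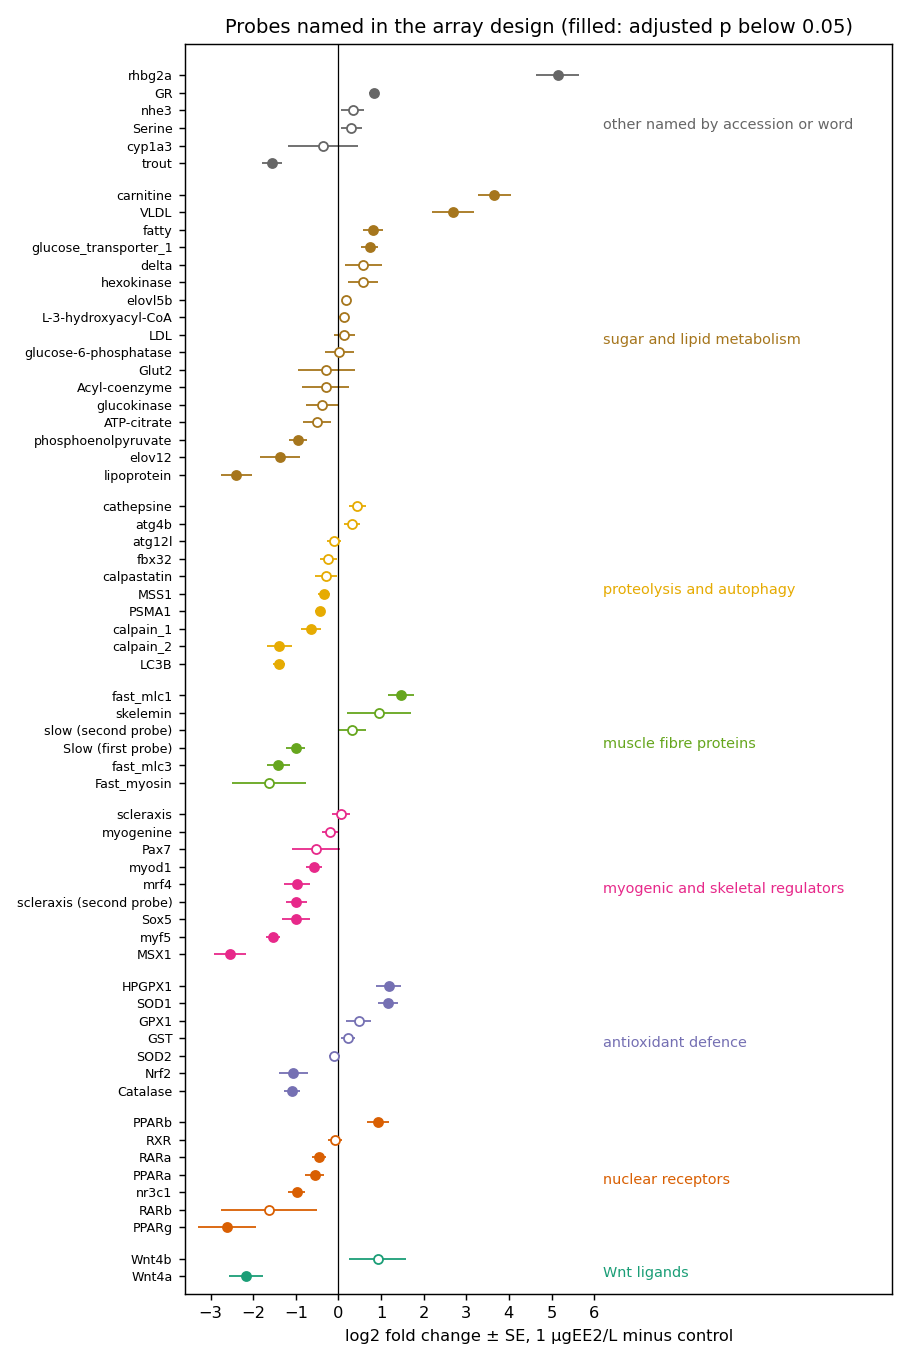
Log2 fold change ± SE in CT3 (x axis) of the 64 probes that the array design names, by gene group, with filled circles for an adjusted p below 0.05 in limma and open circles otherwise. The myogenic and the proteolysis groups hold filled circles only on the side of lower expression, and rhbg2a, whose controls are below background, lies farthest to the right.

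The arrays at 1 μgEE2/L were also compared with the neighbouring concentrations, in contrasts that do not use the control mean. The control arrays still entered the common quantile normalisation and the shared estimate of the spread. Against 0.1 μgEE2/L, 3769 probes (6.26% of the array) were called, 964 higher and 2805 lower at 1 μgEE2/L. This count moved from 1692 without replicate 3 at 1 μgEE2/L to 5941 without replicate 2 at 0.1 μgEE2/L, and was 401 with Scheffe's criterion. With array weights 12715 probes were called, 6893 higher and 5822 lower, so that the balance of directions turned. Of the 16 sensitive biomarkers, he2 was called, as lower at 1 than at 0.1 μgEE2/L (limma, adjusted p = 0.0018). The probe with the largest fall, TC120404, was lower by a log2 difference of -4.36 (adjusted p = 3.7e-10), and CUST_2321_PI425536763 was also called as lower (adjusted p = 4.7e-06). Both probes were chosen for their low signals on the same arrays at 1 μgEE2/L, so these calls are descriptions. For he2 and CUST_2321_PI425536763 no size is given, since no array at 1 μgEE2/L was above background. Of the array-named probes, lipoprotein alone was called, at -1.34 (adjusted p = 0.023). Among the specific biomarkers FOXL2 (-1.14, adjusted p = 0.0070) and spon2 (-1.14, adjusted p = 0.036) were lower at 1 μgEE2/L, and SLC25A6 (1.30, adjusted p = 0.011) and SLC25A4 (1.02, adjusted p = 0.018) were higher. The supplementary list had 15 of 27 probes lower and 0 higher. Both lists were chosen for a call at 0.1 and none at 1 μgEE2/L, so these counts are a description.

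Against 10 μgEE2/L, 2 probes were called (0.00332% of the array), and 2887 of 60195 had an unadjusted p below 0.05 in limma. The second count is no more than a threshold of 0.05 passes on average where nothing differs. CUST_9209_PI425536763, which stood 3.59 log2 units above the control at 1 μgEE2/L, was 2.75-fold lower at 10 μgEE2/L (limma, adjusted p = 0.026). CUST_6167_PI425536763 was below background on all arrays of both concentrations. Without replicate 4 at 10 μgEE2/L, 103 probes were called, and weighting the arrays by their quality gave 2229, so that the count between 1 and 10 μgEE2/L rested on how the arrays were treated.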

How the data were processed

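Gonad pools were hybridised to single-colour Agilent arrays and read with Feature Extraction. The deposited processed signal is an intensity on a linear scale, background-corrected by the authors' scanner software and not normalised between arrays, and the median spot and background intensities were used in 1 alternative. The flags for outlier spots and for spots well above background are scores of yes or no deposited with them. The authors also deposited log2 values that they quantile-normalised over the 30 arrays, which served as an alternative. In these values control replicates 2 and 4 are exchanged relative to the scanner data, and replicate numbers here follow the scanner data. The tank means with the deposited labels exchanged this pair, replicates 1 and 6 at 0.1 μgEE2/L and replicates 4 and 5 at 10 μgEE2/L. All exchanges are within a concentration. The submitters' notes name R 2.15.3.

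Here control spots and outlier spots were left out (103 outlier spots on replicate 1 at 1 μgEE2/L, 43 or fewer on the other arrays), replicate spots of each probe were averaged, and the log2 signals of all 30 arrays were brought to a common distribution by quantile normalisation. A model with 1 mean per concentration was fitted in limma 3.58.1 (R 4.3.3), with contrasts, eBayes and Benjamini-Hochberg adjustment over 60195 probes. Scheffe's criterion, named in the methods, was an alternative. Files were read and figures drawn in Python 3.11.15 (pandas 2.3.3, numpy 2.4.6, matplotlib 3.10.9). A bound replaces the fold change where a group has no array above background, and takes the higher of the signal and the lowest value well above background on each array. It holds for the main processing only.

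Members and gene lists were chosen with earlier results of these data known. Named were the probes with a gene name in the array design (of 7 with a RefSeq accession, 4 were in the RefSeq table of assembly USDA_OmykA_1.1), the probes of the study's supplementary list, the genes of its 2 biomarker lists identified as the single probe matching 4 printed values each of the contrasts at 0.1 and 0.01 μgEE2/L (7 of 8 and 16 of 16), and per direction the 10 largest changes detected on all 12 arrays without overlap and the 5 largest bounds. The probe pair of the comparison with 10 μgEE2/L was named after its values were seen, as were the probes plotted for control replicates 2 and 6. Sequences and gene names of the other probes were not analysed here.

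The fit was tested on simulated data of 60195 probes for this contrast. It recovered 50 of 100 probes changed 2-fold and 86 of 100 changed 4-fold, with 7 false calls, without testing normalisation or differences between whole arrays. No other probes were changed, whereas CT3 called 40.9% of all probes, so that the adjustment was stricter in the simulation. Each simulated probe had the same SD in all groups, while the median SD was 0.45 in the controls and 0.30 at 1 μgEE2/L. The recovery and the false calls are therefore not rates for CT3. The number of arrays and tanks limits the precision.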

Additional observations from a re-analysis of the deposited data

Results flagged for a closer look

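In groups of 6 arrays, a highest or lowest value was noted where its gap to the nearest array exceeded a Dixon limit, which chance passes in about 1 group in 20. Of 164 groups looked at, 12 were noted, 6 of them in the control. Control replicate 4, with its dim middle, was the lowest for cdkn1b (2.46, nearest 3.89) and for Wnt4b (4.31, nearest 7.13), and the highest for PPARg (8.01, nearest 4.64) and glucose_transporter_1 (7.95, nearest 7.14). Control replicate 5 was the highest for MSX1 (6.28, nearest 5.08) and for rhbg2a (4.50, nearest 2.68). At 1 μgEE2/L, replicate 4 was the highest for PPARg (3.21, nearest 1.74), replicate 1 for Sox5 (4.96, nearest 3.36), replicate 5 for CUST_27381_PI425536763 (2.88, nearest 2.33) and replicate 3 for SYN2 (6.72, nearest 6.57). Replicate 3 was the lowest for si:dkey-162h11.2 (10.41, nearest 10.91) and replicate 2 for the probe named fatty (8.33, nearest 8.97). All are normalised log2 signals, and none belongs to control replicate 2 or 6.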

How the results depend on the processing

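No probe called in CT3 among those named changed its direction under the alternatives run. Calls were lost, however, and Scheffe's criterion ended those of 21 named probes. Nrf2, fatty, PPARb, glucose_transporter_1, PPARg, PSMA1 and the second scleraxis probe each lost the call under 1 alternative. Their highest adjusted p among the limma fits was between 0.053 and 0.22. Among the probes discussed that were not called, cdkn1b, spon2, atg4b and the first scleraxis probe changed sign in some. The number of probes called in CT3 stayed within 1.5 times its value under all of them except Scheffe's criterion (12035), and was 21423 with tank means, 23604 with the slide as a block and 17303 at an adjusted p of 0.01. Leaving out 1 array gave 21798 to 26523 called probes, 11678 to 14675 over 2-fold and a share of 47.6 to 49.0% over-expressed. The normexp background correction gave 6664 probes over 2-fold, and 75th percentile scaling a share of 34.5%. The principal component difference kept its side of the threshold, with 236 to 268 without 1 array. The brightness difference was 0.64 without control replicates 2 and 6 (exact permutation test, p = 0.033), and 0.17 to 0.52 without 1 array.

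Between 0.1 and 1 μgEE2/L, the count was 1223 at an adjusted p of 0.01, 5678 with 75th percentile scaling, 12715 with array weights, 401 with Scheffe's criterion, 2205 with tank means (1657 with the pool labels of the deposited table), 1729 with brightness as a covariate, 6024 without control replicates 2 and 6 and 7483 without 2, 4 and 6. Leaving out 1 array gave 1692 to 5941. Between 1 and 10 μgEE2/L, the count was 2229 with array weights, 5 with brightness as a covariate, 4 without the dim middle of 2 arrays, 1 with 75th percentile scaling, normexp, tank or slide as a block or probes above background only, and 0 with Scheffe's criterion, tank means under both labels, an adjusted p of 0.01 and without controls 2 and 6 or 2, 4 and 6. Leaving out 1 array gave 0 to 103. The cause was not tested. The tank means with the other labels and the omission of controls 2, 4 and 6 were chosen after seeing the data. The 2 arrays with a dim middle, control replicate 4 and replicate 1 at 0.1 μgEE2/L, were set by name, which also needed a look at the data. No measure of that dimness is given here. The omission of controls 2 and 6 rested on their likeness to the exposed arrays.

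With the replicate number as a block, CT3 called 24915 probes, of which 24139 were shared. The numbers did not pair the arrays, since deviations of arrays with the same number correlated at -0.26 to 0.21 and 1 of 6 correlated best with its own number.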
